A study of Mus musculus with 12 samples.

Results

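Exercise was compared with a sedentary life across both genotypes, in the cerebellum of mice carrying an expanded Atxn1 repeat and of their wild-type littermates. The comparison took in all 12 of the 12 libraries of the series, 1 library per mouse, with 6 exercise mice against 6 sedentary mice and genotype as a block. It addressed the part of the exercise effect that both genotypes share. SCA1 mice were Atxn1 154Q/2Q knock-in mice, a model of spinocerebellar ataxia type 1 in which 1 allele of Atxn1 encodes a long polyglutamine tract in every cell that uses the gene. WT mice were littermates without the expanded allele. The 6 exercise mice (3 WT, 3 SCA1) had a running wheel from 4 to 16 weeks of age, a period of 12 weeks, and the 6 sedentary mice (3 WT, 3 SCA1) had none. Exercise mice lived alone with the wheel and sedentary mice lived in groups, so running and single housing cannot be told apart in these libraries. The paper reports that solo housing had no effect on motor or cognitive behaviour, and describes no such control for RNA. The wheels were taken away before behavioural testing, and the brains were collected after it. Both sexes were used. Over 1000 reads of Xist, a transcript of the inactive X chromosome, were counted in 3 of the 6 exercise and 1 of the 6 sedentary libraries.

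Voluntary running acts on the brain through neuronal activity, growth factors such as brain-derived neurotrophic factor, blood vessels, stress hormones and fuel supply. In the cerebellum, Purkinje cells carry the output of the cortex, and granule cells are by far the most numerous neurons. The fourth ventricle lies against the cerebellum, and its choroid plexus secretes cerebrospinal fluid and can be dissected with the tissue.

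Each library had between 55059831 and 69065648 read pairs, of which 20556802 to 32127508 were counted on genes. Granule cell and Purkinje cell markers were strongly expressed in every library, with summed levels of 4276 to 8300 and 6513 to 11440 CPM (counts on genes scaled to a common library size). SCA1 sedentary mouse 16 and SCA1 exercise mouse 55 stood apart from the other 10 on the first principal component, with scores of −93.8 and −60.3 (the others lay between −8.70 and 35.4). Their summed brainstem markers were 74.96 and 68.2 CPM, against 3.51 to 21.2 CPM in the other libraries, and their granule cell markers were the lowest. With the summed brainstem level as a covariate, edgeR found 0 genes at an adjusted p under 0.05 and 1857 at an unadjusted p under 0.05, and without mice 16 and 55 it found 0 and 1218.

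**Figure D1:**
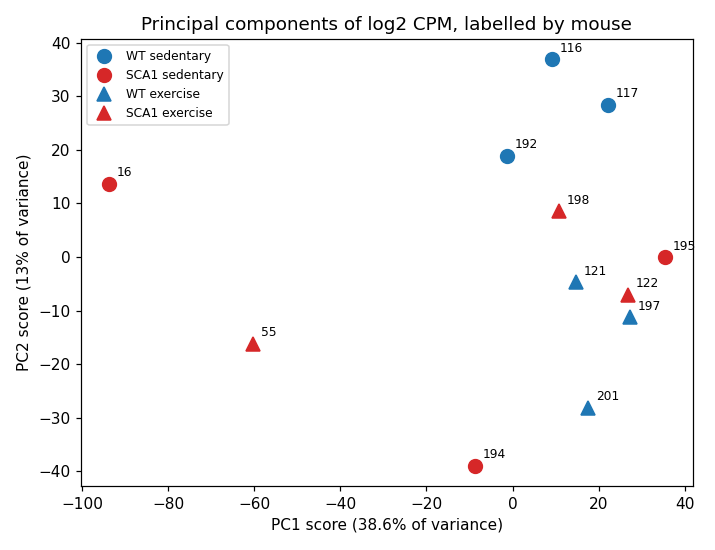
Scores of the 12 libraries on the first (x axis) and second (y axis) principal components of log2 CPM, labelled by mouse number, with colour for genotype and shape for treatment. Mice 16 and 55 lie at −93.8 and −60.3 on the first component, 1 in each treatment group, and the other exercise and sedentary mice are mixed along it.

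No gene passed the test for exercise against sedentary. With edgeR's quasi-likelihood test and Benjamini-Hochberg adjustment, 0 of 20341 genes (0% of those tested) were differentially expressed, defined by an adjusted p under 0.05 and an absolute log2 fold change (log2FC) over 0.5, and 0 had an adjusted p under 0.05 at any size. The lowest adjusted p was 0.939. An unadjusted p under 0.05 was found for 699 genes (3.44%), 397 higher (1.95%) and 302 lower (1.48%) with exercise. This was fewer than the 1017 genes expected by p alone if no gene differed. DESeq2, run on the larger set of 35145 genes with any count, also found 0 genes, with 910 at an unadjusted p under 0.05. The median standard error of a log2FC was 0.15, and the median log2FC of all genes was −0.0044, with the 5th and 95th percentiles at −0.38 and 0.39.

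Exercise accounted for 9.51% of the variance of log2 CPM over all tested genes, and genotype for 12.6%. The share of exercise was not larger than exchanging the treatment within genotype gave (exact permutation test over 400 arrangements, p = 0.36). The interaction of exercise and genotype passed for 0 genes in edgeR (lowest adjusted p 0.882), with 769 genes (3.78%) at an unadjusted p under 0.05. In the model of the 4 groups, an unadjusted p under 0.05 was found for 955 genes (4.69%) in WT mice and 441 genes (2.17%) in SCA1 mice. The log2FC had the same sign in WT and SCA1 mice in 10934 genes (53.8%). Across genes, which are not independent replicates, the WT and SCA1 log2FC correlated weakly, with r = 0.13 and rho = 0.079, and r was −0.073 without mice 16 and 55 and −0.013 without sedentary mice 192 and 195. Only 5 genes (0.0246%) had an unadjusted p under 0.05 in both genotypes with the same sign.

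The choroid plexus markers had the largest median difference of the gene lists. All 14 were higher with exercise, where 48.8% of all genes were, with a median log2FC of 1.78 (median over all genes −0.0044), and 12 of the 14 had an unadjusted p under 0.05 in this direction, where 1.95% of all genes did. None had an adjusted p under 0.05 in the edgeR fit on all 12 mice. Ttr, which encodes the transthyretin that the choroid plexus secretes, was expressed at 471, 863 and 1744 CPM (lowest, median and highest of 6) in exercise mice and at 3.89, 257 and 1064 CPM in sedentary mice. WT sedentary mouse 192 and SCA1 sedentary mouse 195 had 3.89 and 5.25 CPM, whereas no exercise mouse had under 471 CPM. Clic6, a chloride channel protein of secretory epithelia, was expressed at 15.3, 30.6 and 47.0 CPM with exercise and at 6.68, 10.1 and 27.1 CPM without. Cldn2, a claudin of the tight junctions of the choroid plexus (ENSMUSG00000047230, chromosome X of GRCm39 from 138701480 to 138712135), was expressed at 3.59, 6.59 and 10.3 CPM with exercise and at 0.38, 1.02 and 5.52 CPM without (log2FC 1.88, standard error 0.56, adjusted p = 0.939 in edgeR). Otx2, a transcription factor of the choroid plexus and of other brain regions, showed the smallest difference of the list, at a log2FC of 0.60.

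Mice 192 and 195 held the lowest choroid plexus levels. The summed choroid plexus level was 578 to 2056 CPM in the exercise mice, and 23.3 and 31.9 CPM in sedentary mice 192 and 195. The other 4 sedentary mice ranged from 163 to 1260 CPM. The median log2FC of the list was 3.21 in WT and 0.52 in SCA1 mice. Fitted on the 6 WT mice alone, edgeR called 169 of 19301 genes at an adjusted p under 0.05, 149 higher and 20 lower. The higher ones held 11 of the 14 choroid plexus markers, 4 of the 13 markers of meninges and fibroblasts and 1 growth factor. The lower ones held 2 of the 18 oligodendrocyte markers, 1 ribosomal protein gene and 1 nuclear respiratory chain gene. The other lists held none. Fitted on the 6 SCA1 mice alone, edgeR called 0 of 19446 genes, with 130 at an unadjusted p under 0.05. The interaction over both genotypes passed for 0 genes. Without mice 192 and 195, all 14 genes were still higher, the median was 1.19 and 5 of the 14 had an unadjusted p under 0.05, where 3.09% of all genes did in this direction. In bulk tissue, more choroid plexus in the sample and more RNA per choroid plexus cell cannot be told apart, and the dissection was not recorded by mouse in the sources used here.

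**Figure D2:**
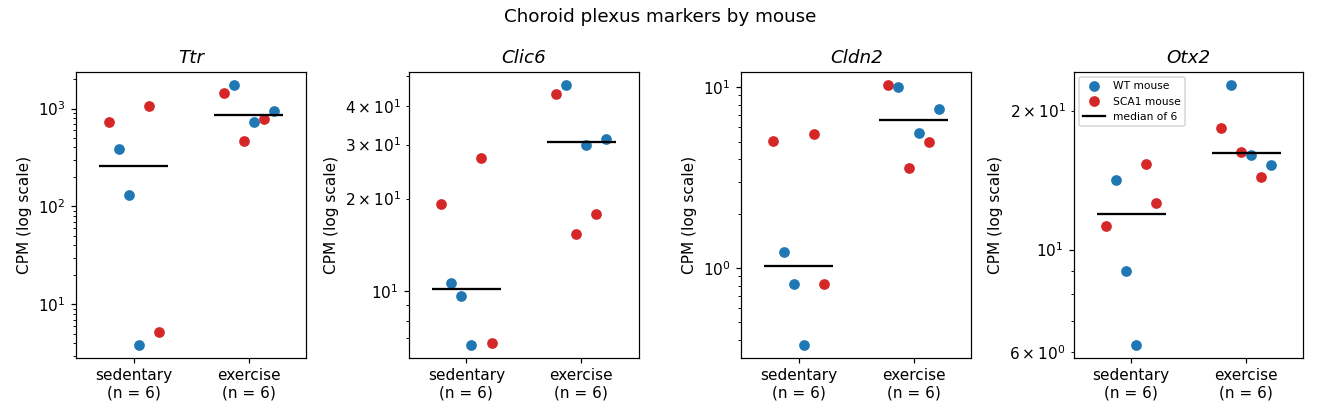
Expression of 4 choroid plexus markers (y axis, CPM on a log scale) in each mouse by treatment, with blue for WT, red for SCA1 and a line at the median of 6. Sedentary mice 192 and 195 lie far below the rest for Ttr, at 3.89 and 5.25 CPM, and the exercise mice reach from 471 to 1744 CPM.

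Other cells of the brain's borders were described by their own lists. All 6 measured ependymal markers were higher with exercise (median log2FC 0.38, 2 with an unadjusted p under 0.05, where 1.95% of all genes were), and the ependymal cells line the ventricles. With the summed choroid plexus level as a covariate, which was chosen for the lists after seeing the data, 3 of the 6 were higher and the median was 0.093. Of 13 markers of meninges and fibroblasts, 12 were higher (median 0.22), with medians of 0.64 in WT and −0.26 in SCA1 mice. With the level of chromosome Y genes as a covariate, 9 of the 13 were higher and the median was 0.080, and with the choroid plexus covariate 7 were higher and it was 0.022. Purkinje cell markers were higher in 17 of 17 genes with a median log2FC of 0.14 (0.32 in SCA1 and −0.079 in WT mice). Without mice 16 and 55, 12 of the 17 were higher, with a median of 0.054. Oligodendrocyte markers were lower in 17 of 18 genes (median −0.29), and without mice 16 and 55 the median was −0.18. Microglial markers were lower in 13 of 16 (median −0.11). Of 16 markers of cerebellar interneurons and unipolar brush cells, 7 were higher (median −0.030), and 4 of these had an unadjusted p under 0.05, where 1.95% of all genes did. They were Kit (log2FC 0.22) and Tfap2b (0.23), which mark interneurons and their lineage, and Eomes (0.43) and Lmx1a (1.08), which mark brush cells. All 4 were named after their values were seen. Lmx1a was at 1.57 in WT and 0.65 in SCA1 mice. Of the 16 markers, 9 were lower, 0 of them at this threshold. The lowest was Sst at −1.62 (unadjusted p = 0.111 in edgeR), also named after its value was seen. Without mice 16 and 55, 0 of the 16 were higher at this threshold, where 3.11% of all genes were, and 2 were lower, where 2.83% were. Markers of midbrain and forebrain were lower in 6 of 8 (median −0.54), and erythrocyte markers in 5 of 6 (median −0.32; −0.79 in WT and 0.15 in SCA1 mice). Lhx9, a transcription factor of the thalamus and midbrain named after its values were seen, had a lowest, median and highest level of 0.49, 0.60 and 1.75 CPM with exercise and of 0.67, 1.31 and 9.85 CPM without, and the groups overlapped (log2FC −2.13, unadjusted p = 0.0102, adjusted p = 0.939 in edgeR). It was the 1 marker of its list below an unadjusted p of 0.05, where 1.48% of all genes were lower. Without mice 16 and 55 the median of the erythrocyte list was −0.69. Markers of granule cells (8 of 13 higher) and Bergmann glia (8 of 15) had medians of 0.029 and 0.037, and those of endothelium (6 of 13), pericytes (2 of 9) and brainstem (5 of 10) of −0.0098, −0.13 and −0.043. In the edgeR fit on all 12 mice, no member of these lists had an adjusted p under 0.05. In WT mice alone, edgeR called 4 markers of meninges and fibroblasts higher and 2 oligodendrocyte markers lower.

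The genes with the smallest p, named when the direction was the same in both genotypes, began with Cflar. Cflar (ENSMUSG00000026031, chromosome 1 from 58750321 to 58798047) encodes c-FLIP, an inhibitor of caspase activation by death receptors. It was expressed at 31.0, 33.2 and 36.6 CPM with exercise and at 24.98, 27.3 and 29.4 CPM without (log2FC 0.29, standard error 0.069, unadjusted p = 0.000946, adjusted p = 0.939 in edgeR). Every exercise mouse was above every sedentary mouse, and an exact permutation test within genotype gave p = 0.005, the smallest it allows. Cflar was picked by its p in these same mice, so neither is independent support. Slc31a1, the copper importer CTR1 (ENSMUSG00000066150, chromosome 4 from 62278085 to 62320861), was expressed at 25.1, 26.9 and 38.5 CPM with exercise and at 19.2, 21.8 and 24.8 CPM without (log2FC 0.39). Its groups did not overlap either. Over all genes, 15 (0.0737%) were higher in every exercise mouse than in every sedentary mouse, 7 of them protein-coding, and 11 (0.0541%) were lower, 8 of them protein-coding. How many genes would separate with exchanged labels was not computed, so these counts are not read as an effect of exercise.

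Sequences are shown for 2 genes whose groups did not overlap, for a cilium gene and for a choroid plexus gene. They are RefSeq promoters of 300 bases on build GRCm38.p6, with the RFX half-site GTTGCC or its reverse complement in capitals. RFX factors bind such sites at genes of cilia. Cflar is chr1:58711241-58711540 on the plus strand, Slc31a1 is chr4:62360451-62360750 on the plus strand, Spef2 is chr15:9748819-9749118 on the minus strand and Kcne2 is chr16:92292139-92292438 on the plus strand.
Cflar: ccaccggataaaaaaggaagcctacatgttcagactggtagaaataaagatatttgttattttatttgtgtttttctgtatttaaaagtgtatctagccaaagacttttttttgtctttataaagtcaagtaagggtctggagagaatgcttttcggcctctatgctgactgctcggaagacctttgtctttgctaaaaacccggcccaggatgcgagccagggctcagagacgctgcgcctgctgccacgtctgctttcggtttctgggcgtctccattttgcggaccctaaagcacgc
Slc31a1: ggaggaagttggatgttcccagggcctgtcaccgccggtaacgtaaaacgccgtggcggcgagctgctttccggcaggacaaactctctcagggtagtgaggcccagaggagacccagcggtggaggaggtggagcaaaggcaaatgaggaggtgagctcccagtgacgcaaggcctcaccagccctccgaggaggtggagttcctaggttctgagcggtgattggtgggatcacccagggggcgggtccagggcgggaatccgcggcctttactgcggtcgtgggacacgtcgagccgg
Spef2: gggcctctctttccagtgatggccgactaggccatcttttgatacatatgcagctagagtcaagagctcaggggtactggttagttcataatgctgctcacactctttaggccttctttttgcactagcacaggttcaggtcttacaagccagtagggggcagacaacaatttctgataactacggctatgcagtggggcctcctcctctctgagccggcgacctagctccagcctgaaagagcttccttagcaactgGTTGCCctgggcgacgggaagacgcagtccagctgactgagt
Kcne2: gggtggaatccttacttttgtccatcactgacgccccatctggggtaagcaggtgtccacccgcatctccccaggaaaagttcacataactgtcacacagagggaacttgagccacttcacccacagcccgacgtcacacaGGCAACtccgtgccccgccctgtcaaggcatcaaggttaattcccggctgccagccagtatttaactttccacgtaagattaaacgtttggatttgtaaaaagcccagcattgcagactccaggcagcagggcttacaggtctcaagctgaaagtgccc
Kcne2 has another promoter in the table, chr16:92295366-92295665, in which neither motif searched was found. The promoter of Cldn2, chrX:139800558-139800857 on the plus strand, held neither motif and is not shown. Wdr24 and Clic6 are named only. GTTGCC, searched on both strands, was held by 12.5% of the 32851 promoters in the table. It was held by 4 of the 16 promoters of the 10 matched choroid plexus genes (25%), which belong to 3 genes. Of the 9 promoters of the 6 matched ependymal genes, 3 held it (33.3%). Among the 15 promoters of the 9 matched genes of the 12 leading higher genes it was held by 1 (6.67%), that of Spef2. Of the 18 promoters of the 11 matched leading lower genes, 3 held it (16.7%), all of 1 gene, Spsb3. TAATCC, the core bound by OTX factors, was held by 7.06% of all promoters and by 1 of those 16 choroid plexus promoters, that of Otx2. It was held by 2 of the 9 ependymal promoters (22.2%), by 0 of the 15 of the leading higher genes and by 1 of the 18 of the lower ones (5.56%). A match describes these letters in this window and is not a site in use.

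Spef2, a gene of the sperm flagellum and of motile cilia, was expressed at 3.47, 4.82 and 5.83 CPM with exercise and at 2.11, 2.81 and 4.34 CPM without (log2FC 0.69). Sgms2, a sphingomyelin synthase, was expressed at 11.2, 13.0 and 16.9 CPM with exercise and at 7.14, 8.28 and 12.2 CPM without (log2FC 0.61). Perp, a desmosome protein, had a log2FC of 0.61, and Msx1, a homeobox factor, of 1.38. The difference of Msx1 was 2.52 in WT and 0.38 in SCA1 mice, and that of Prelp 0.84 and 0.21. In edgeR the interaction had an unadjusted p of 0.00254 for Msx1, 0.0121 for Cldn2 and 0.0251 for Prelp. It was over 0.05 for the other leading genes, and none passed adjustment. With the summed choroid plexus level as a covariate, the log2FC of Cldn2 was 0.67, but Cldn2 is itself part of that sum. Msx1 was at 0.63 (1.38 in the main comparison), Slc31a1 at 0.22 (0.39), Sgms2 at 0.34 (0.61), Sulf1 at 0.19 (0.41) and Prelp at 0.29 (0.52). Perp was at 0.43 (0.61), Cflar at 0.23 (0.29), Ctnnd1 at 0.35 (0.33) and Bhlhe22 at 0.32 (0.30). Ctnnd1, the p120 catenin of cell junctions, was expressed at 13.9, 15.4 and 16.6 CPM with exercise and at 10.1, 12.2 and 14.2 CPM without. Bhlhe22, a transcription factor of neurons, had a log2FC of 0.30 in the main comparison. Phactr2 (0.33), Sulf1 (0.41), which encodes a heparan sulfatase, and Prelp (0.52), which encodes a matrix proteoglycan, completed the higher genes.

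The lower genes were smaller in size. Wdr24, a subunit of the GATOR2 complex of amino acid sensing (ENSMUSG00000025737, chromosome 17 from 26042601 to 26047704), was expressed at 17.0, 17.9 and 20.5 CPM with exercise and at 20.6, 22.01 and 22.6 CPM without (log2FC −0.23), and its groups did not overlap. Tfr2, transferrin receptor 2, was expressed at 1.40, 2.06 and 3.09 CPM with exercise and at 2.37, 3.28 and 3.51 CPM without (log2FC −0.52). Syt3, a synaptotagmin, was expressed at 47.3, 53.4 and 56.5 CPM with exercise and at 53.7, 59.4 and 70.5 CPM without (log2FC −0.22). The exercise and sedentary values of Tfr2 and Syt3 overlapped. Coro1a, an actin regulator of leukocytes, had a log2FC of −0.29, Pelo, which rescues stalled ribosomes, of −0.43, and Spsb3, Prxl2b, Map1s, Mospd3, Pigz, Dmwd and Dus1l lay between −0.27 and −0.19. All had an adjusted p of 0.939 in edgeR.

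**Figure D3:**
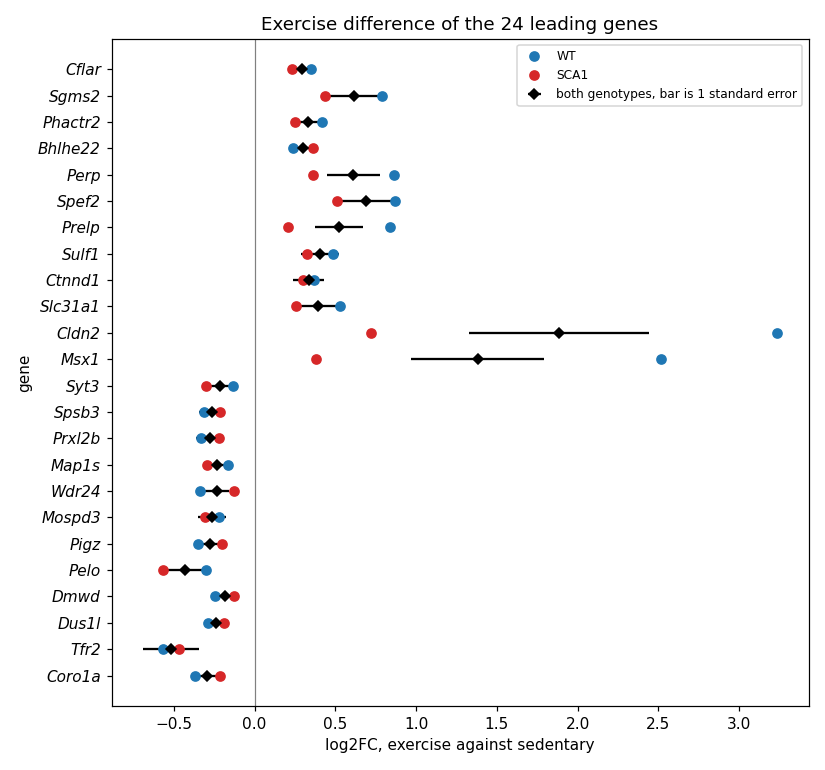
Log2FC of exercise against sedentary (x axis) of the leading higher and lower genes (y axis), with diamonds and 1 standard error for both genotypes together, blue for WT and red for SCA1. Cldn2 and Msx1 are at 3.23 and 2.52 in WT mice and at 0.72 and 0.38 in SCA1 mice, whereas Ctnnd1 and Tfr2 lie close together in both.

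**Figure D4:**
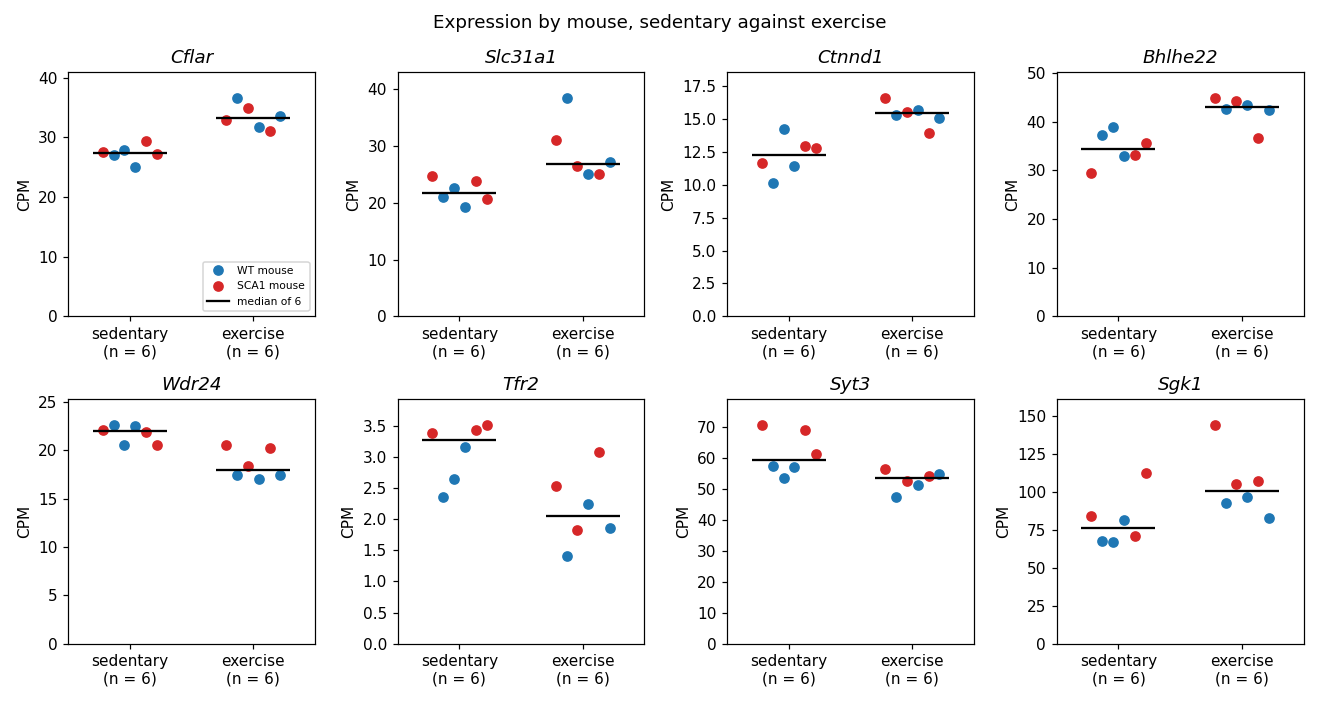
Expression (y axis, CPM) of 8 genes in each mouse by treatment, with blue for WT, red for SCA1 and a line at the median of 6. Cflar, Slc31a1 and Wdr24 do not overlap between treatments, and the other 5 genes do.

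Gene lists tied to exercise held few members at an unadjusted p under 0.05, and none at an adjusted p under 0.05 in edgeR. Of 23 neurotrophic and growth factors, 15 were higher and 0 had an unadjusted p under 0.05 (median log2FC 0.073). Bdnf, the best-known growth factor of running, was expressed at 13.5, 14.5 and 19.4 CPM with exercise and at 11.1, 14.4 and 17.2 CPM without (log2FC 0.076, standard error 0.12, and 0.17 without mice 16 and 55). Genes switched on by neuronal activity were lower in 19 of 26 (median −0.20; −0.051 in WT and −0.40 in SCA1 mice), and 3 of them had an unadjusted p under 0.05, against 1.48% of all genes in this direction. Arc, which shapes synapses after activity, was expressed at 17.4, 19.4 and 22.1 CPM with exercise and at 17.9, 23.99 and 30.6 CPM without (log2FC −0.32, unadjusted p = 0.0184, adjusted p = 0.939 in edgeR). Junb and Egr4, immediate early transcription factors, had a log2FC of −0.51 and −0.64, and the highest value of Junb, 15.1 CPM, was that of sedentary mouse 16. Without mice 16 and 55 the log2FC of Junb was −0.26 and the median of the activity list −0.0012, and with the choroid plexus covariate they were −0.91 and −0.45.

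Glucocorticoid-responsive genes were higher in 17 of 19, with a median log2FC of 0.15 (0.13 in WT and 0.18 in SCA1 mice). Sgk1, a kinase gene turned on by corticosteroids, was expressed at 82.8, 101.0 and 144 CPM with exercise and at 67.0, 76.4 and 112.5 CPM without (log2FC 0.37, unadjusted p = 0.00613, adjusted p = 0.939 in edgeR). It was the 1 member with an unadjusted p under 0.05, where 1.95% of all genes had one in this direction. Plin4, a lipid droplet coat protein, had a log2FC of 0.49, and Tsc22d3, which encodes the glucocorticoid-induced leucine zipper protein, of 0.20. With the choroid plexus covariate, Sgk1 was at 0.57, Plin4 at 0.88 and Tsc22d3 at 0.12.

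Cholesterol synthesis genes were lower in 21 of 22 (median −0.16; −0.14 in WT and −0.18 in SCA1 mice). Mvd, an enzyme of the mevalonate pathway, had a log2FC of −0.25. The highest summed level of this list was in mice 16 and 55, at 1437 and 1086 CPM. Without these mice, 4 of the 22 genes were higher and the median was −0.090. Cytosolic ribosomal protein genes were lower in 78 of 79 (median −0.17) and nuclear genes of the respiratory chain in 69 of 73 (median −0.15). The medians were −0.39 and −0.30 in WT and 0.034 and 0.011 in SCA1 mice. Ribosomal protein genes have many near-identical pseudogenes, so the counts on single members are uncertain. Genes of the respiratory chain encoded by mitochondrial DNA were higher in 10 of 11 (median 0.16), at −0.17 in WT and 0.40 in SCA1 mice, and without mice 16 and 55 in 8 of 11 (median 0.060). Those 10 include mt-Nd3, mt-Co2, mt-Atp6 and mt-Co3, with means of only 0.43, 0.94, 1.05 and 1.27 CPM in exercise mice. The mean of mt-Co1 was 6491 CPM, so the low counts on these members are uncertain. The differences between genotypes in these list medians were not tested.

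The counts of list members moved with the libraries that entered the fit. Without mice 192 and 195, a choice made after the data had been seen, an unadjusted p under 0.05 was found for 3.09% of all genes in the higher and 3.6% in the lower direction, and 0 genes passed adjustment in edgeR. In that fit 19 of 79 ribosomal protein genes and 18 of 73 nuclear respiratory chain genes were lower at this threshold, where 0 and 1 were in the fit on all 12 mice. Activity genes gave 6 of 26 lower and glucocorticoid-responsive genes 3 of 19 higher, with medians of −0.31 and 0.22. Without mice 16 and 55 the shares over all genes were 3.11% and 2.83%, and 8 of the 73 nuclear respiratory chain genes, 2 of the 79 ribosomal protein genes and 0 of the 26 activity genes were lower at this threshold. Sgk1 had a log2FC of 0.52 without mice 192 and 195 and of 0.29 without mice 16 and 55. Wdr24 had −0.24 and −0.26 in these fits, and Cflar 0.26 and 0.30, which is close to their values on all 12 mice. Both genes were picked by their p over all 12 mice, so this closeness is not independent support.

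The remaining pathway lists had medians between −0.10 and 0.057. Circadian clock genes were higher in 15 of 23 (median 0.054), and Rora, a nuclear receptor that Purkinje cells need, had a log2FC of 0.23. Splicing regulators were higher in 42 of 64 (median 0.033), with Tra2a at 0.20. Ion channels of Purkinje cell firing were higher in 24 of 30 (median 0.057). Kcnma1, the BK potassium channel, was expressed at 341.5, 429 and 454 CPM with exercise and at 296, 368 and 466.2 CPM without (log2FC 0.16, and 0.10 without mice 16 and 55). Calb1, which encodes the calcium buffer calbindin, had a log2FC of 0.14. The value of Calb1 was 0.064 without mice 16 and 55. It was −0.13 in WT and 0.42 in SCA1 mice, and its interaction had an unadjusted p of 0.00478, which did not pass adjustment over all genes in edgeR. Mitochondrial biogenesis (11 of 23 higher), heat shock proteins (10 of 23), fuel use (11 of 30) and vascular genes (6 of 26) had medians of −0.0050, −0.0065, −0.064 and −0.10. Atxn1, which carries the repeat, had a log2FC of 0.072, Cic, its binding partner, of −0.056, and Egf of −0.072. Without mice 16 and 55, Atxn1 was at 0.11 and Egf at −0.12.

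**Figure D5:**
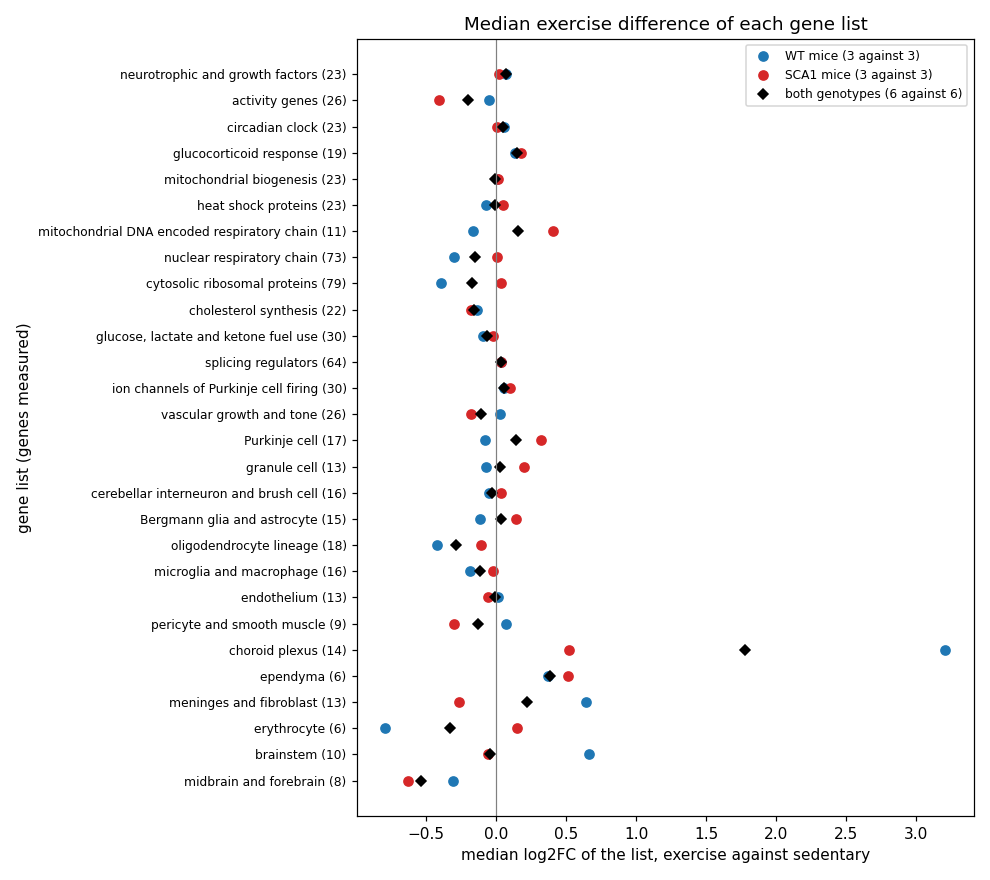
Median log2FC of exercise against sedentary (x axis) of each gene list (y axis, with the number of genes measured), black for both genotypes, blue for WT and red for SCA1. Choroid plexus reaches 3.21 in WT and 0.52 in SCA1 mice, cholesterol synthesis and glucocorticoid response are close in both genotypes, and ribosomal protein genes differ between them.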

How the data were processed

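The deposited values were raw counts of read pairs per gene, which the authors made from ribosomal RNA-depleted, directional libraries. Per the labels, reads were checked with FastQC 0.11.9, trimmed with fastp 0.24.0 and aligned to GRCm39 with STAR 2.7.10a. The authors did not normalize the counts. The annotation release they counted on was not given in the sources used here. The reverse-strand column was used, since only 5.54% to 6.01% of strand-assigned counts fell on the forward strand, and the 4 summary lines were dropped. Of 56941 genes, 56323 matched GENCODE M39.

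Genes were filtered with filterByExpr over the 4 groups, normalized by TMM and fitted in R 4.3.3 with edgeR 4.0.16 by genotype and treatment (quasi-likelihood test, Benjamini-Hochberg adjustment). Differential expression required an absolute log2FC over 0.5 as well as an adjusted p under 0.05. Values within each genotype and the interaction came from a model of the 4 groups. CPM was scaled by TMM, with a prior count of 2 on the log2 scale. Single values were compared by two-sided exact permutation of treatment within genotype (400 arrangements, smallest p 0.005). The 12 higher and 12 lower named genes were protein-coding, had a mean log2 CPM of at least 1, the smallest p and the same direction in both genotypes. The 3 genes with the smallest p in each of 14 pathway lists and the genes the study names for expression were added. Cell type markers were read from 15 further lists. Some genes that this rule picks are not reported here. Ttr, Clic6, Otx2 and Kcne2 were named from the choroid plexus list, and Kit, Tfap2b, Eomes, Lmx1a, Sst and Lhx9 from other marker lists, after their values were seen. The members and lists were chosen with earlier results of these data known. Alternatives were DESeq2 1.42.0, other filters, scaling, strands, covariates, blocks and libraries, and each mouse left out. The scripts were tested on simulated data. The study gave 2 libraries with lower RNA integrity a modified preparation and marked them in a supplement that was not used here, and p-values measure only the spread between these mice. Depth set the precision of low genes, and 1 mouse was 1 library.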

Additional observations from a re-analysis of the deposited data

Results flagged for a closer look

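In each group of 6 mice, a value was marked when its gap to the nearest other mouse exceeded 0.625 of the group's range. Of 202 such checks, 32 values were marked, and chance marks about 1 in 20 groups. No genotype difference in the exercise effect passed the interaction test. No explanation was tested.

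SCA1 sedentary mouse 16 was highest of its 6 for Spef2 (4.34 CPM), Pelo (8.58 CPM), Junb (15.1 CPM), Dnajb1 (42.9 CPM) and Vgf (99.5 CPM). It was also highest for the summed levels of mitochondrial biogenesis (1503 CPM), cholesterol synthesis (1437 CPM), oligodendrocyte (7955 CPM), microglial (207 CPM) and brainstem genes (74.96 CPM). It was lowest for ion channels of Purkinje cell firing (11000 CPM) and granule cell markers (4276 CPM), and 6.38% of its read pairs mapped to several places.

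SCA1 exercise mouse 55 was highest of its 6 for Mospd3 (12.6 CPM) and Vgf (46.1 CPM). Its summed levels were highest for cholesterol synthesis (1086 CPM), fuel use (8102 CPM), interneuron and brush cell (1907 CPM), oligodendrocyte (6304 CPM), microglial (173 CPM) and brainstem genes (68.2 CPM). They were lowest for splicing regulators (10080 CPM) and granule cell markers (5325 CPM), and 6.33% of its read pairs mapped to several places.

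SCA1 exercise mouse 198 was lowest for Phactr2 (71.5 CPM) and Bhlhe22 (36.7 CPM) and highest for Dus1l (35.6 CPM) and Coro1a (39.9 CPM). SCA1 exercise mouse 122 was highest for Angptl4 (3.29 CPM). Among sedentary mice, mouse 195 was highest for Gdnf (1.59 CPM) and Atxn1 (193 CPM), and mouse 194 for Tie1 (16.5 CPM).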

How the results depend on the processing

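No paired analysis was possible because each mouse has a number of its own and the groups share none. Over 31 alternatives, 12 of which left out 1 mouse each and 2 of which were chosen after seeing the data, 0 genes passed in edgeR or DESeq2, except in WT mice alone (169 genes at an adjusted p under 0.05, 150 of them with an absolute log2FC over 0.5). The number at an unadjusted p under 0.05 moved most, from 699 of the 20341 genes tested. Among genes with at least 1 count it was 1158, but of 35145 genes, so the counts are not on the same base. On the same 20341 genes it was 2147 with the band of mouse numbers as a block and 2228 with the choroid plexus covariate. The brainstem covariate gave 1857, the multimapped share 1438 and the share without a gene 1197. The number was 1218 of 20494 genes without mice 16 and 55, 3196 of 19301 in WT mice alone and 130 of 19446 in SCA1 mice alone. The bands of mouse numbers were under 100, which held only SCA1 mice 16 and 55, 116 to 122 and 192 to 201. With this block the lowest adjusted p was 0.181 in edgeR. The 2 alternatives added later gave 1391 genes at an unadjusted p under 0.05 (mice 192 and 195 left out) and 1758 (choroid plexus and chromosome Y covariates). With each mouse left out in turn it lay between 401 (without WT sedentary mouse 192) and 2229 (without SCA1 sedentary mouse 195), and SCA1 exercise mouse 55 gave 1224. The cause was not tested.

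In WT mice alone the log2FC reversed for mt-Nd4 (−0.038), mt-Nd2 (−0.16), Tie1 (0.041), Calb1 (−0.12) and Cic (0.11). Egf reversed with the choroid plexus covariate (0.18), without mice 192 and 195 (0.057) and with the choroid plexus and chromosome Y covariates (0.18). With each mouse left out, Cic lay between −0.10 and 0.033 and Egf between −0.18 and 0.044. The share of variance with exercise lay between 8.28% and 14.3%.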
